A study of Homo sapiens with 34 samples.

Results

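GATA2, GATA3, GATA4, GATA5 and GATA6 are the members of the GATA family of transcription factors, apart from GATA1, that bind DNA through a pair of zinc fingers. They were chosen by symbol, and make up 5 of the 35940 gene symbols in the RNA sequencing tables of human embryonic stem cells on their way through the primitive streak (PS). These symbols carry 6 of 37951 gene identifiers, because GATA4 is listed under 2, whose counts were added. All 5 genes passed the filter on low counts. The cells were wild type ESI017, an established human embryonic stem cell line, and each of 17 conditions had 2 replicates, giving 34 libraries. The undifferentiated control was kept in mTeSR PLUS and is labelled 48 h. On day 1, cells became 1 of 4 populations collected at 24 h. The endoderm population DE(a) was made with activin at 100 ng/ml and 2 µM of CHIR, an activator of WNT signaling. APS, the anterior PS, was made with 4 µM CHIR, a lower activin dose of 30 ng/ml, and bFGF at 20 ng/ml. MPS, the mid PS, had the activin and bFGF doses of APS with CHIR raised to 6 µM and BMP4 added at 40 ng/ml. PPS, the posterior PS, had the MPS factors without activin. On day 2, every population was moved to each of 3 media and collected at 48 h. DE(b), for definitive endoderm, held 100 ng/ml activin and the BMP receptor inhibitor LDN at 250 nM. PM, for paraxial mesoderm, combined LDN at the same dose with 1 µM of the activin receptor inhibitor A8301 and with bFGF at 20 ng/ml, and the sources used here differ on whether it also held CHIR. LM, for lateral mesoderm, combined the same dose of A8301 with IWP2, an inhibitor of WNT secretion, at 4 µM, and with BMP4 at 30 ng/ml. A condition is named by its day 1 population and its day 2 medium, and the standard protocols are DE(a)-DE(b) for endoderm, APS-PM for paraxial mesoderm and MPS-LM for lateral mesoderm. All cells are of 1 line, and no GATA gene was altered in any of them.

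GATA factors bind the short DNA motif that gives them their name, act mainly as activators, and recruit cofactors such as the Friend of GATA proteins ZFPM1 and ZFPM2. GATA4, GATA5 and GATA6 are best known from endoderm and heart, where they work with NKX2-5, TBX5 and HAND2. GATA2 and GATA3 are best known from blood and trophoblast, respectively with TAL1 and LMO2 and with TFAP2A and TFAP2C, and both are induced by BMP signaling in early ectoderm and mesoderm.

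The members resemble each other most in the zinc fingers that read DNA, which matters here because each read has to be assigned to 1 of them. The coding sequences of the C-terminal zinc finger, read from the main transcript of each gene in GENCODE v44 (build GRCh38), are shown 5′ to 3′ on the coding strand with the codons of the 4 cysteines that hold the zinc ion in capitals. They lie within exon 5 of GATA2 (chr3:128481843-128481917, minus strand), exon 5 of GATA3 (chr10:8069500-8069574, plus strand), exon 4 of GATA5 (chr20:62466450-62466524, minus strand) and exon 4 of GATA6 (chr18:22181480-22181554, plus strand).
GATA2: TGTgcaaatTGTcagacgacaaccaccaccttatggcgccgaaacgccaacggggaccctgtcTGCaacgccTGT
GATA3: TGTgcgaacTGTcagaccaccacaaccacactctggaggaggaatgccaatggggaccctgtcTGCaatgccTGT
GATA5: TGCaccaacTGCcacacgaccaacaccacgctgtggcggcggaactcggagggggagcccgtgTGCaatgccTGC
GATA6: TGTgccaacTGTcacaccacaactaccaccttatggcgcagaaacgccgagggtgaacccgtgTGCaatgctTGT
In these 75 bases GATA2 and GATA3 have 60 bases in common, and they encode the same amino acid at 25 of 25 positions. GATA2 and GATA6 share 61 bases and 22 amino acids, and GATA5 shares 19 amino acids with each of GATA2 and GATA3. Over all annotated transcripts, GATA2 and GATA6 have 5 stretches of 31 bases in common, GATA2 and GATA5 have 2, GATA4 and GATA5 have 2, and the other 7 pairs have 0. The stretches that GATA2 and GATA6 share are 0.133% of those of GATA6, the largest such share among the 10 pairs. The 2 identifiers of GATA4 carry the same symbol, and their counts were added without knowing whether they stand for the same locus. ENSG00000285109 is not in GENCODE v44, and ENSG00000136574 held between 24.0% and 49.8% of them, with a median of 36.0% over the 32 libraries with any count, so the summed GATA4 level depends on this choice.

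Library totals ranged from 15522780 to 23439799 estimated counts, with a median of 19341117. Levels are CPM, counts scaled to the library total, and a gene without a count in a library could still be present at up to 3 counts of the total. Markers of each intended cell type were highest in its medium as sums over the list. The sum of 5 definitive endoderm markers was between 3459 and 6446 CPM in DE(b), and at most 335 CPM in PM and 139.7 CPM in LM. CER1 alone made up between 3329 and 6006 CPM of the DE(b) sum, while FOXA2 went from 86.0 and 125 CPM in the DE(a)-DE(b) libraries to 2.17 and 11.001 CPM in PPS-DE(b), and HHEX from 62.5 and 84.1 CPM to 6.24 and 11.5 CPM. Paraxial markers summed to between 969 and 1716 CPM in PM, and lateral and cardiac markers to between 468 and 2372 CPM in LM, where TBX5 did not pass 3.15 CPM. HAND1 alone made up between 388 and 2127 CPM of the LM sum. The 5 markers of pluripotency summed to between 3795 and 3879 CPM in the control and to at most 786 CPM in PM and LM. Markers of the PS summed to 1.63 and 1.86 CPM in the control and to between 1673 and 3041 CPM at 24 h. In bulk libraries, fewer cells of a type and less RNA per cell cannot be told apart.

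**Figure D1:**
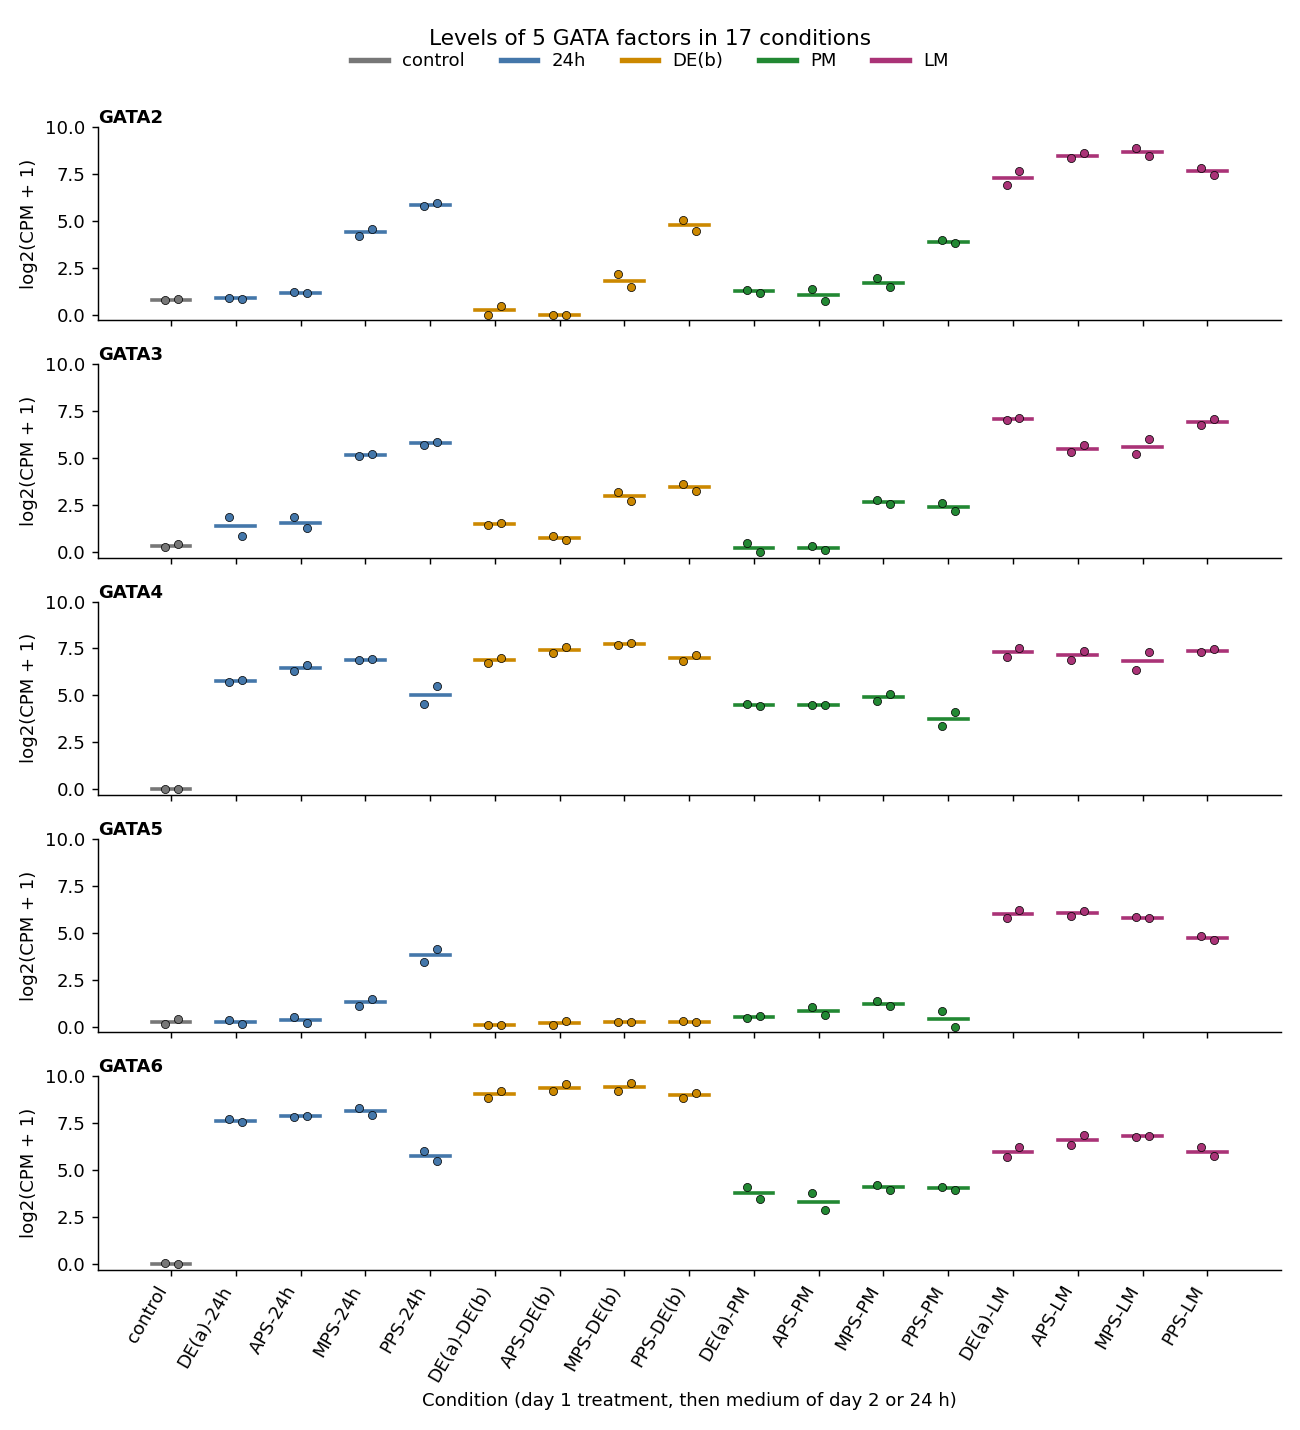
Level of each GATA factor as log2(CPM + 1) in 17 conditions, with 1 point for each of the 2 replicates and a bar at their mean, coloured by medium. GATA4 and GATA6 are at or next to 0 in the control and highest in MPS-DE(b), and GATA2, GATA3 and GATA5 are highest in LM.

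GATA4 and GATA6, the factors of endoderm and heart, went from at most 1 count in a control library to 22.1 CPM or more in every library of all 4 day 1 populations. GATA4 had no count in either control library, where 3 counts would be 0.135 and 0.160 CPM. At 24 h it stood at 51.6 and 55.2 CPM in DE(a), 78.6 and 98.9 CPM in APS, 118 and 120 CPM in MPS, and 22.1 and 45.0 CPM in PPS. These levels were at least 362-fold, 602-fold, 806-fold and 228-fold higher than the control. GATA6 had 1 count and 0 counts in the control. It reached 207 and 189 CPM in DE(a), 230 and 236 CPM in APS, 315 and 248 CPM in MPS, and 65.1 and 44.8 CPM in PPS. With a single count behind the control, the ratio for DE(a) was 8120 with a 95% interval from 1457 to 320800, which covers counting error only. Both genes passed the test against the control in all 4 populations, with adjusted p from 1.0e-12 to 6.5e-10 over the 8 tests.

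GATA2 and GATA3 were highest at 24 h in the populations that had received BMP4. GATA2 was at 0.677 and 0.744 CPM in the control, and at 0.829 and 0.805 CPM in DE(a) and 1.28 and 1.19 CPM in APS. It stood at 17.1 and 22.8 CPM in MPS and at 53.5 and 59.9 CPM in PPS, so the replicates did not overlap between APS, MPS and PPS. Its log2 fold change over the control was 4.90 ± 0.44 (SE) in MPS and 6.33 ± 0.45 in PPS, with adjusted p of 3.0e-08 and 1.1e-09, and it did not pass in DE(a) or APS. GATA3 was lower in the control, at 0.181 and 0.319 CPM. It measured 2.64 and 0.805 CPM in DE(a), 2.61 and 1.37 CPM in APS, 33.97 and 36.0 CPM in MPS and 51.5 and 56.5 CPM in PPS. All 4 populations passed for GATA3, with log2 fold changes of 2.88 ± 0.67, 3.06 ± 0.65, 7.22 ± 0.58 and 7.77 ± 0.58. The call in DE(a) rests on single libraries, since the adjusted p was 0.16 without the first DE(a) library and 0.057 without the first control library.

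GATA5, which acts beside GATA4 and GATA6 in the early heart and gut, appeared at 24 h mainly in PPS. It was at 0.0903 and 0.319 CPM in the control, 0.259 and 0.107 CPM in DE(a), 0.426 and 0.137 CPM in APS, 1.17 and 1.77 CPM in MPS and 9.97 and 16.8 CPM in PPS. The log2 fold change over the control was 6.06 ± 0.68 in PPS (adjusted p = 4.6e-07) and 2.94 ± 0.73 in MPS (adjusted p = 0.0036). The MPS call was lost without the first control library (adjusted p = 0.074), and the other populations did not pass. Across the 5 genes, 16 of 20 tests against the control were called, while the share of all 17894 genes tested that was called was 19.0% in DE(a), 24.5% in APS, 30.0% in MPS and 29.8% in PPS.

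Between neighbouring populations, the members differed in where they changed. APS and MPS differ in BMP4 and in the dose of CHIR, and MPS and PPS in activin. From DE(a) to APS, where 0.732% of all genes were called, 0 of the 5 members passed in edgeR or DESeq2, and GATA4 alone had an unadjusted p under 0.05, at a log2 difference of 0.72 ± 0.32. From APS to MPS, where 2.93% were called, GATA2 rose by a log2 fold change of 4.02 ± 0.41 and GATA3 by 4.15 ± 0.45. Adjusted p was 6.9e-06 for GATA2 and 9.0e-06 for GATA3, and GATA5 was 2.38 ± 0.68 higher (adjusted p = 0.067 in edgeR and 0.0047 in DESeq2). From MPS to PPS, where 6.13% were called, members went in opposite directions. GATA5 rose by 3.11 ± 0.53 (adjusted p = 7.9e-04) and GATA2 by 1.43 ± 0.33 (adjusted p = 0.010), while GATA6 changed by -2.43 ± 0.31 (adjusted p = 3.3e-05) and GATA4 by -1.90 ± 0.33 (adjusted p = 0.0012) on the log2 scale. GATA3 was 0.55 ± 0.37 higher in PPS and did not pass (adjusted p = 0.43). The rise of GATA2 from MPS to PPS was not called without the first MPS library (adjusted p = 0.17) or the second PPS library (adjusted p = 0.089), and the fall of GATA4 had an adjusted p of 0.052 in a model with the MPS and PPS libraries alone. Over the 4 populations together, all 5 members differed (adjusted p from 1.7e-09 to 0.0011), against 18.8% of all genes.

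In DE(b), GATA6 was at its highest, and GATA2, GATA3 and GATA5 fell in the mean over the 4 day 1 populations. GATA6 stood at 465 and 604 CPM in the DE(a)-DE(b) libraries, 587 and 761 CPM in APS-DE(b), 606 and 791 CPM in MPS-DE(b) and 467 and 563 CPM in PPS-DE(b). The 8 DE(b) libraries thus lay between 465 and 791 CPM, above the 315 CPM of the highest 24 h library, and the day 1 populations overlapped. GATA4 measured 107 and 126 CPM in the DE(a)-DE(b) libraries, 150 and 189 CPM in APS-DE(b), 209 and 221 CPM in MPS-DE(b) and 113 and 143 CPM in PPS-DE(b). Between the mean of the 4 DE(b) conditions and the mean of the 4 populations at 24 h, the log2 fold change was 1.84 ± 0.15 for GATA6 and 1.18 ± 0.16 for GATA4 (adjusted p = 1.2e-09 and 3.7e-06).

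GATA2 nearly vanished from DE(b) except after PPS. It had 0 and 0.349 CPM in the DE(a)-DE(b) libraries, 0 CPM in both APS-DE(b) libraries, 3.44 and 1.74 CPM in MPS-DE(b) and 31.4 and 21.2 CPM in PPS-DE(b). GATA3 kept a similar order at a smaller range, with 1.68 and 1.86 CPM in the DE(a)-DE(b) libraries, 0.827 and 0.543 CPM in APS-DE(b), 7.97 and 5.67 CPM in MPS-DE(b) and 11.5 and 8.49 CPM in PPS-DE(b). GATA5 did not pass 0.247 CPM, or 5 counts, in any DE(b) library. All 3 were lower in DE(b) than at 24 h (adjusted p = 2.1e-07 for GATA2, 4.9e-06 for GATA3 and 5.3e-05 for GATA5), GATA3 by a log2 fold change of -1.61 ± 0.23. With a condition at 0, no fold is given for the mean of GATA2. All 5 members were called, against 51.0% of all genes.

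GATA4 and GATA6 were lower in PM than in the other 2 media of day 2, and above the control. GATA6 was at 16.3 and 10.2 CPM in DE(a)-PM, 13.0 and 6.27 CPM in APS-PM, 17.6 and 14.4 CPM in MPS-PM and 16.6 and 14.2 CPM in PPS-PM. GATA4 was at 22.4 and 20.6 CPM in DE(a)-PM, 21.1 and 21.5 CPM in APS-PM, 25.1 and 33.3 CPM in MPS-PM and 9.46 and 16.5 CPM in PPS-PM. Every PM library was below every 24 h library for GATA6, and every control library was below every PM library for both genes. GATA2 lay between 0.640 and 2.84 CPM in the 6 libraries from DE(a), APS and MPS, and at 14.4 and 12.8 CPM in PPS-PM. GATA3 lay between 0 and 0.376 CPM after DE(a) and APS, against 5.86 and 4.77 CPM in MPS-PM and 4.98 and 3.53 CPM in PPS-PM. GATA5 lay between 0 and 1.58 CPM in the 8 libraries.

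Means over the 4 day 1 populations were compared between PM and 24 h. GATA6 changed by -3.71 ± 0.17, GATA3 by -3.35 ± 0.28, GATA4 by -1.78 ± 0.17 and GATA2 by -1.25 ± 0.23 on the log2 scale. Adjusted p ran from 1.3e-13 to 9.8e-05. GATA2 did not fall after DE(a), with 0.829 and 0.805 CPM at 24 h and 1.51 and 1.23 CPM in DE(a)-PM. After APS its replicates overlapped, at 1.28 and 1.19 CPM at 24 h and 1.53 and 0.640 CPM in APS-PM. GATA5 did not pass (-0.71 ± 0.38, adjusted p = 0.13), and it did pass without the first PPS-PM library (-2.19, adjusted p = 5.9e-04), since the second holds no count. The 4 calls stand against 48.2% of all genes.

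LM was where GATA2, GATA3 and GATA5 reached their highest levels. GATA2 measured 119 and 196 CPM in DE(a)-LM, 317 and 390 CPM in APS-LM, 459 and 344 CPM in MPS-LM and 225 and 170 CPM in PPS-LM. GATA5 measured 53.9 and 72.9 CPM in DE(a)-LM, 58.5 and 71.2 CPM in APS-LM, 56.3 and 53.8 CPM in MPS-LM and 27.6 and 24.0 CPM in PPS-LM. For both genes the lowest LM library was above the highest library of any other medium, which for GATA2 was PPS at 24 h with 59.9 CPM and for GATA5 the same population with 16.8 CPM. GATA3 measured 129 and 140 CPM in DE(a)-LM, 38.7 and 50.9 CPM in APS-LM, 36.2 and 63.1 CPM in MPS-LM and 107 and 136 CPM in PPS-LM. In GATA3, MPS-LM overlapped PPS at 24 h, both APS-LM libraries lay below it, and DE(a)-LM and PPS-LM lay above it.

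GATA4 and GATA6 both rose in DE(b) and both fell in PM against 24 h, as means over the 4 day 1 populations. By the same means they went in opposite directions in LM. GATA4 was level after MPS, with a mean of 119 CPM at 24 h and in MPS-LM. GATA6 was not lower after PPS, with means of 55.0 CPM at 24 h and 62.9 CPM in PPS-LM. GATA4 was at 133 and 181 CPM in DE(a)-LM, 120 and 164 CPM in APS-LM, 80.7 and 158 CPM in MPS-LM and 157 and 173 CPM in PPS-LM, within the range of DE(b) but for its lowest library. GATA6 was at 51.6 and 74.6 CPM in DE(a)-LM, 80.2 and 115 CPM in APS-LM, 108 and 112 CPM in MPS-LM and 73.7 and 52.2 CPM in PPS-LM, below each DE(b) library. Against 24 h, log2 fold changes were 5.57 ± 0.30 for GATA5, 5.44 ± 0.20 for GATA2, 3.08 ± 0.21 for GATA3 and 1.11 ± 0.16 for GATA4, while GATA6 changed by -1.04 ± 0.15. Adjusted p lay between 8.5e-15 and 5.6e-06, and all 5 members were called, against 56.0% of all genes.

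Set against each other, the media differed in each member in at least 2 of 3 pairs. All 5 were higher in LM than in PM, against 42.0% of all genes called in either direction. The log2 differences were 6.69 ± 0.21 for GATA2, 6.43 ± 0.26 for GATA3, 6.27 ± 0.30 for GATA5, 2.89 ± 0.17 for GATA4 and 2.67 ± 0.16 for GATA6. Between LM and DE(b), with 39.6% of genes called, GATA3 was higher in LM by 4.69 ± 0.23 and GATA5 by 8.44 ± 0.37, GATA2 was also higher, and GATA6 changed by -2.88 ± 0.16. GATA4 differed by -0.06 ± 0.16 (adjusted p = 0.82) and did not pass. Between DE(b) and PM, with 43.0% of genes called, GATA6 was higher in DE(b) by 5.55 ± 0.18, GATA4 by 2.96 ± 0.17 and GATA3 by 1.74 ± 0.31. GATA2 and GATA5 were lower in DE(b) (adjusted p = 4.2e-04 and 5.3e-04), and GATA5 lost this call without the first PPS-PM library (adjusted p = 0.94).

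**Figure D2:**
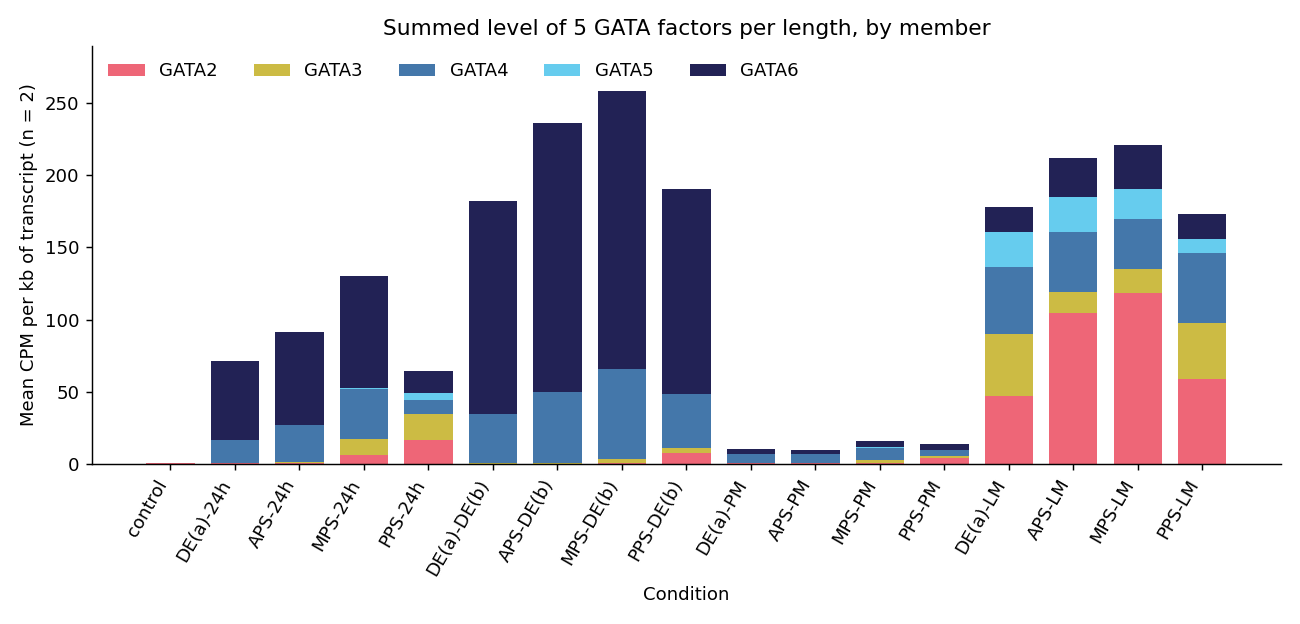
Mean level of the 5 GATA factors per kb of their main transcript (CPM per kb, n = 2 replicates), stacked for each of the 17 conditions. GATA6 makes up most of each bar in DE(b), the PM bars are all under 20, and the LM bars hold all 5 members.

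Levels can be compared between genes only per length, here as CPM per kb of the main transcript of each gene, with that of ENSG00000136574 for GATA4. On this scale the 5 genes summed to 0.306 and 0.445 in the 2 control libraries, and to between 8.45 and 16.2 in PM, 60.8 and 138 at 24 h, 151 and 239 in LM, and 160 and 285 in DE(b). The LM and DE(b) ranges overlapped in the sum, and their makeup was different. GATA6 held between 72.1% and 81.6% of the sum in the DE(b) libraries, and GATA4 between 18.0% and 26.3%. In LM, GATA2 held between 23.4% and 61.0%, GATA4 between 10.6% and 30.1%, GATA3 between 5.28% and 27.6%, GATA6 between 8.54% and 14.1%, and GATA5 between 5.43% and 13.7%. PPS at 24 h also held several members at once, with 26.0% GATA2 in both libraries, 27.5% and 27.0% GATA3, 29.6% and 18.2% GATA6, 10.7% and 19.4% GATA4, and 6.26% and 9.44% GATA5. DE(a) at 24 h was the simplest population, with 77.8% and 75.7% GATA6.

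Each gene was then placed in order over the 17 conditions by its mean. GATA2 fell from 402 ± 81.7 CPM (SD, n = 2) in MPS-LM over 353 ± 52.1 CPM in APS-LM and 198 ± 38.8 CPM in PPS-LM to 158 ± 54.4 CPM in DE(a)-LM. MPS-LM overlapped APS-LM, and PPS-LM overlapped DE(a)-LM. GATA3 fell from 134 ± 8.23 CPM in DE(a)-LM and 121 ± 20.4 CPM in PPS-LM, which overlapped, to 54.0 ± 3.52 CPM in PPS at 24 h. GATA6 had all 4 DE(b) conditions at the top, from 699 ± 131 CPM in MPS-DE(b) to 515 ± 67.4 CPM in PPS-DE(b), with each neighbour overlapping the next. GATA4 was highest in MPS-DE(b) at 215 ± 8.84 CPM, which did not overlap APS-DE(b) at 169.7 ± 27.5 CPM, and the 8 conditions from APS-DE(b) down to DE(a)-DE(b) at 116 ± 13.3 CPM overlapped one after another. GATA5 had the 4 LM conditions first, then PPS at 24 h at 13.4 ± 4.84 CPM. Of the 16 neighbouring pairs in each order, the replicates overlapped in 8 for GATA2, 10 for GATA3, 9 for GATA4, 11 for GATA5 and 9 for GATA6.

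As a description over the 17 condition means of log2(CPM + 1), the members formed 2 sets. Pearson r was 0.91 between GATA2 and GATA3, 0.91 between GATA2 and GATA5, 0.85 between GATA3 and GATA5 and 0.88 between GATA4 and GATA6. GATA6 had r of 0.05 with GATA2, 0.22 with GATA3 and -0.04 with GATA5, and GATA4 had r of 0.36 with GATA2, 0.50 with GATA3 and 0.33 with GATA5. The points share the same control and day 1 populations and are not independent.

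The question that crossing the media addresses is how far the day 1 population still showed on day 2. Among the 4 day 1 populations, the test within DE(b) called GATA2 and GATA3 among the members (adjusted p = 5.9e-10 and 1.3e-05) against 16.6% of all genes. Within PM it called the same 2 genes (adjusted p = 2.3e-06 and 5.4e-06) against 7.46%, where GATA3 had an adjusted p of 0.069 in a model of the PM libraries alone, and within LM again (adjusted p = 0.0047 and 0.0040) against 19.6%. The nearest of the other members was GATA6 in LM, with an adjusted p of 0.056, which lay under the threshold in DESeq2 (0.019), without the second DE(a)-LM library (0.038) and without the first APS-LM library (0.034). With only the libraries of a medium in the model, GATA5 passed in LM (0.0098) and GATA4 in DE(b) (0.024). GATA5 in PM passed without the first PPS-PM library (0.0036). GATA4 had 0.18 in DE(b) and 0.17 in PM, where ENSG00000285109 alone passed (0.026) and ENSG00000136574 alone did not (0.93). In 15 of the 16 conditions with counts GATA4 was higher in the second replicate, by up to 0.99 on the log2(CPM + 1) scale. With replicate number as a block in the model, GATA4 passed in DE(b) (adjusted p = 0.018) and in PM (0.015), and GATA6 passed in LM (0.047).

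**Figure D3:**
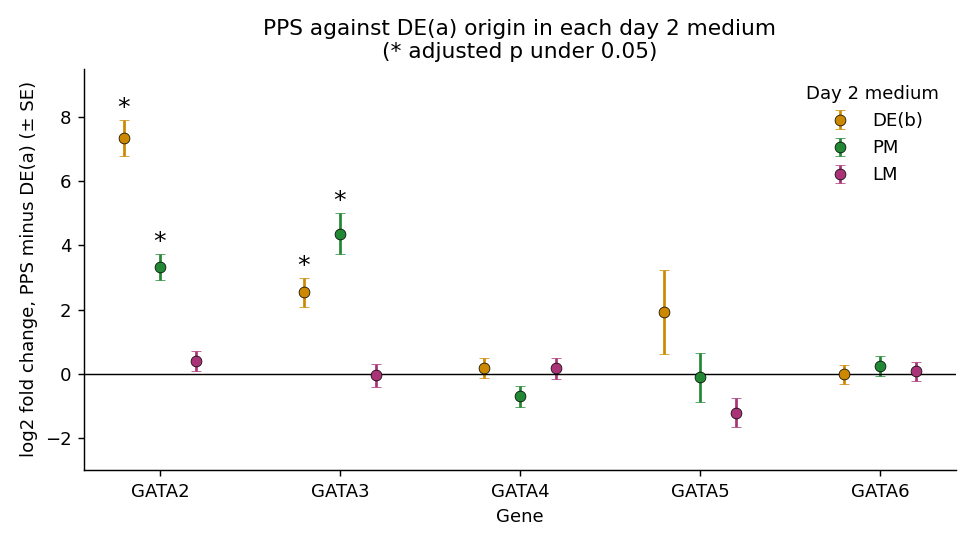
Log2 fold change (± SE) of PPS-derived over DE(a)-derived cells in DE(b), PM and LM for each GATA factor, with an asterisk at an adjusted p under 0.05. GATA2 and GATA3 are above 0 in DE(b) and PM and near 0 in LM.

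Comparing the extremes, cells that had been PPS kept more GATA2 and GATA3 than cells that had been DE(a), in DE(b) and in PM. In DE(b) the log2 difference was 7.34 ± 0.56 for GATA2, with a total of 6 counts behind DE(a)-DE(b), and 2.54 ± 0.45 for GATA3 (adjusted p = 1.7e-08 and 3.3e-04), against 17.4% of genes called. In PM it was 3.32 ± 0.41 for GATA2 and 4.37 ± 0.63 for GATA3 (adjusted p = 2.3e-05 and 1.0e-04), against 8.61%. GATA3 had 8 and 0 counts in the DE(a)-PM libraries, and in PM it did not pass in a model of those PM libraries alone (adjusted p = 0.16). Markers of other cell types moved with this difference in DE(b). Paraxial markers summed to between 7.13 and 9.82 CPM in the DE(a)-DE(b) libraries, with CDX2 and MSGN1 at 0, and to between 426 and 458 CPM in PPS-DE(b), with 5 of 5 higher. Lateral and cardiac markers summed to at most 0.698 CPM and to between 76.5 and 111 CPM, with 4 of 6 higher, and 3 of 5 definitive endoderm markers were lower. In PM, 1 of 5 paraxial and 0 of 6 lateral markers were higher. Of the 5 definitive endoderm markers there, 3 were lower and 0 higher, with CER1, FOXA2, HHEX and SOX17 at 0 in PPS-PM. CER1 was already at 0.752 and 0 CPM in DE(a)-PM. CXCR4 was at 156 and 244 CPM in DE(a)-PM and at 265 and 321 CPM in PPS-PM. The sum of the 5 was between 251 and 263 CPM and between 265 and 321 CPM in the same order. The part of these markers in the GATA2 and GATA3 results was not tested. In LM, where 14.3% of genes were called, 0 members passed in edgeR. There GATA2 differed by 0.41 ± 0.31 and GATA3 by -0.05 ± 0.37, and GATA5 had an unadjusted p of 0.015 (-1.21 ± 0.46, adjusted p = 0.087, and 0.038 in DESeq2). With replicate number as a block in the model, GATA4 passed in PM (-0.76, adjusted p = 0.043).

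The difference between media was itself tested. Over the 12 conditions of day 2, the interaction of day 1 and day 2 was called for GATA2 (adjusted p = 4.1e-07) and GATA3 (adjusted p = 4.2e-05), against 13.1% of all genes. The difference of PPS from DE(a) changed from PM to LM by -2.91 ± 0.51 log2 units for GATA2 and by -4.42 ± 0.75 for GATA3 (adjusted p = 0.0010 and 6.1e-04), against 6.52% of genes. For GATA3 the DE(a)-PM libraries held 8 and 0 counts, so the size of its change is uncertain. From DE(b) to LM the difference of PPS from DE(a) changed by -6.93 ± 0.67 for GATA2 and by -2.59 ± 0.58 for GATA3 (adjusted p = 6.7e-07 and 0.0050), against 9.00%. For GATA2 the DE(a)-DE(b) libraries held 0 and 6 counts, so the sizes that involve DE(b) are uncertain. Between DE(b) and PM, with 7.71% called, the difference was 4.02 ± 0.80 larger in DE(b) for GATA2 (adjusted p = 0.0029, and 0.066 in a model of those libraries alone) and did not pass for GATA3 (-1.83 ± 0.84, adjusted p = 0.20). GATA4, GATA5 and GATA6 did not pass any of these 4 tests. The outcome for the interaction depended on the first PPS-PM library for GATA5 and on the second MPS-LM library for GATA4. With replicate number as a block in the model, the interaction of GATA4 passed (adjusted p = 0.0097).

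Within LM, GATA2 and GATA3 were arranged in opposite ways. GATA2 was between 317 and 459 CPM in the 4 libraries from APS and MPS and between 119 and 225 CPM in the 4 from DE(a) and PPS. GATA3 was between 36.2 and 63.1 CPM in the first 4 and between 107 and 140 CPM in the second 4. The pairing of APS with MPS and of DE(a) with PPS was seen in the values and is given without a test. Per kb of transcript, GATA2 was 7.46 and 6.99 times GATA3 in APS-LM and 11.6 and 4.96 times in MPS-LM, against 0.847 and 1.28 times in DE(a)-LM and 1.92 and 1.15 times in PPS-LM.

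**Figure D4:**
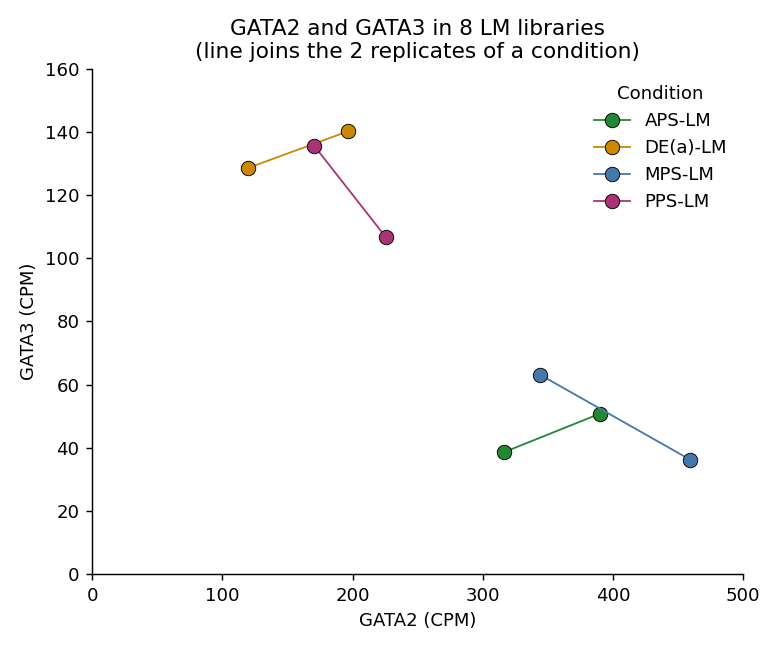
GATA3 against GATA2 in CPM for the 8 LM libraries, with a line joining the 2 replicates of each condition. The DE(a)-LM and PPS-LM libraries lie at low GATA2 and high GATA3, and the APS-LM and MPS-LM libraries at high GATA2 and low GATA3.

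Against the standard lateral mesoderm protocol, MPS-LM, the DE(a)-LM cells had less GATA2, with a log2 fold change of -1.44 ± 0.32 (adjusted p = 0.0031), more GATA3, at 1.31 ± 0.37 (adjusted p = 0.020), and less GATA6, at -0.91 ± 0.30 (adjusted p = 0.042). These 3 of 5 calls stand against 14.4% of all genes. They rest on single libraries, and 0 of the 3 passed without the first DE(a)-LM library (adjusted p = 0.082, 0.052 and 0.35), while GATA2 alone passed without the first MPS-LM library. In APS-LM, with 3.79% of genes called, 0 members passed in edgeR or DESeq2 and 0 had an unadjusted p under 0.05. In PPS-LM, with 5.60% called, 0 passed in edgeR, although GATA2, GATA3, GATA5 and GATA6 had unadjusted p under 0.05. GATA3 was at 1.26 ± 0.37 (adjusted p = 0.0504, and 0.038 without the second MPS-LM library) and GATA2 at -1.03 ± 0.31 (adjusted p = 0.061), and both were called in DESeq2 (adjusted p = 0.011 and 0.018). The differences of GATA6 and GATA5 in PPS-LM were -0.83 ± 0.30 and -1.11 ± 0.46, which did not pass (adjusted p = 0.12 and 0.21) but did in a model of the MPS-LM and PPS-LM libraries alone (0.045 and 0.0075).

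Markers of other cell types moved with the day 1 population inside LM. The 6 markers of amnion or surface ectoderm, none of them at 0 in both libraries of a condition, summed to between 77.5 and 115 CPM in DE(a)-LM, 28.7 and 30.9 CPM in APS-LM, 34.4 and 38.2 CPM in MPS-LM and 168 and 258 CPM in PPS-LM. DE(a)-LM and PPS-LM lay above APS-LM and MPS-LM, as in GATA3, but PPS-LM lay above DE(a)-LM, where GATA3 overlapped, and the part of these markers in the GATA3 result was not tested. Most of the sum was TFAP2A, a partner of GATA3, at 55.1 and 88.2 CPM, 23.2 and 26.8 CPM, 30.6 and 35.4 CPM and 113 and 167 CPM in the same order, while GABRP was at 31.8 and 51.9 CPM in PPS-LM and did not pass 5.40 CPM in the others. The 5 markers of definitive endoderm summed to between 103 and 139.7 CPM in DE(a)-LM and to at most 10.3 CPM in the others. SOX17 was at 94.8 and 69.6 CPM in DE(a)-LM and at 0 in both MPS-LM libraries. The 7 markers of blood and endothelium, of which TAL1 was at 0 in APS-LM, MPS-LM and PPS-LM and CDH5 in APS-LM and MPS-LM, summed to between 977 and 1511 CPM in APS-LM, 604 and 1076 CPM in MPS-LM, 334 and 909 CPM in DE(a)-LM and 297 and 385 CPM in PPS-LM. KDR made up nearly all of this sum, at 974 and 1506 CPM in APS-LM and 597 and 1064 CPM in MPS-LM, and ETV2 did not pass 3.46 CPM in LM. The 5 markers of pluripotency summed to between 559 and 786 CPM in DE(a)-LM and 337 and 414 CPM in MPS-LM, with 4 of 8 rows higher in DE(a)-LM. The 6 markers of lateral and cardiac mesoderm, all detected in every LM condition, summed to between 468 and 963 CPM in DE(a)-LM, 962 and 1745 CPM in APS-LM, and 1978 and 2372 CPM in MPS-LM and PPS-LM. HAND1 made up most of this sum, at 388 and 818 CPM in DE(a)-LM and 806 and 1528 CPM in APS-LM. It was at 1789.5 and 2127 CPM in MPS-LM and at 1892 and 1826 CPM in PPS-LM. The 5 markers of extra-embryonic endoderm, where GATA4 and GATA6 are also active, summed to between 644 and 772 CPM in the LM libraries of DE(a), APS and MPS and to 262 and 282 CPM in PPS-LM, with TTR at 0 in all but DE(a)-LM. AFP did not pass 5.18 CPM and APOA1 2.56 CPM in LM, so outside DE(a)-LM the rest of this sum was SOX7 and LAMA1. The control sum was 101 and 105 CPM. The part of these marker lists in the GATA results was not tested either.

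Partner transcription factors of lateral mesoderm and heart rose with GATA4 and GATA5 in LM. Of 11 tested, 10 were higher and 1 lower in LM than at 24 h, with a median log2 fold change of 3.85 beside -0.01 over all genes, of which 56.0% were called. HAND1, which GATA4 binds in heart muscle, rose by 6.60 ± 0.31, and ISL1, a marker of cardiac progenitors, by 1.96 ± 0.30. By immunostaining after the standard lateral mesoderm protocol, the study reports GATA3 protein in nearly all cells with high ISL1, and describes that subset as amnion-like. In DE(b), 2 of the 11 were higher and 6 lower (median -2.38), beside 51.0% of all genes called and a median of -0.02. In PM, 0 were higher and 8 lower (median -1.89), beside 48.2% called and a median of -0.02. NKX2-5 was between 8.03 and 39.3 CPM in LM and did not pass 4.00 CPM elsewhere, and TBX5 was highest at 3.15 and 1.45 CPM in APS-LM.

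As means over the 4 day 1 populations, SOX17, FOXA2, CXCR4, CER1 and HHEX were all higher in DE(b) than at 24 h. These 5 definitive endoderm markers had a median log2 fold change of 5.91, beside 51.0% of all genes called. Mean CXCR4 went from 1.28 to 161 CPM after DE(a) and from 2.31 to 115 CPM after APS. It went down from 52.2 to 24.1 CPM after MPS and from 39.6 to 13.4 CPM after PPS. SOX17, an early endoderm regulator, rose by 7.21 ± 0.63, and FOXA2, a pioneer factor of endoderm, by 5.82 ± 0.56. In LM, 0 of the 5 were higher and 2 lower (median -2.21), beside 56.0% of all genes. In DE(a)-LM, 4 of the 5 were higher than in MPS-LM (median 5.46), beside 14.4%.

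Partners of GATA2 and GATA3 in amnion and trophoblast were higher in 5 and lower in 2 of 8 tested in LM against 24 h (median 1.40), beside 56.0% of all genes called. TFAP2A rose by 3.66 ± 0.23 and TBX3 by 1.75 ± 0.12, and ELF5, a trophoblast factor, did not pass 0.127 CPM in any library. In DE(b), 1 was higher and 6 were lower (median -2.73), and in PM likewise 1 and 6 (median -1.26), beside 51.0% and 48.2% of all genes. From APS to MPS, where GATA2 and GATA3 rose, 5 of the 8 rose too and 0 fell (median 2.31), beside 2.93% of all genes. Among 9 BMP target genes, 4 were higher in MPS than in APS and 0 lower, 7 were higher and 1 lower in LM than at 24 h, and 8 were lower and 1 higher in DE(b). The medians were 1.04, 1.61 and -2.49, and the shares of all genes called were 2.93%, 56.0% and 51.0%. BMP4 was given in MPS, PPS and LM, and its receptors were inhibited in DE(b) and PM. MPS also had more CHIR than APS, and LM also held A8301 and IWP2, so the parts of these factors cannot be told apart. Against the control, 6 of the 9 BMP targets were higher in DE(a), 7 in APS, 8 in MPS and 9 in PPS, and 0 were lower. Beside them, 19.0%, 24.5%, 30.0% and 29.8% of all genes were called, and DE(a) and APS had no BMP4.

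The cofactors moved in several directions. Of 10 tested, 5 were higher and 3 lower in LM than at 24 h, with a median log2 fold change of 0.20, beside 56.0% of all genes called. ZFPM2, a Friend of GATA protein, did not pass 1.14 CPM in the control or at 24 h, and rose by 5.00 ± 0.39 in LM, 4.13 ± 0.39 in PM and 3.71 ± 0.39 in DE(b). ZFPM1 rose in LM by 1.27 ± 0.20 and did not pass in DE(b) or PM (adjusted p = 0.20 and 0.12). LMO2, which joins GATA2 and TAL1 in blood progenitors, rose in PM by 1.86 ± 0.28 and changed by -3.17 ± 0.33 in LM, the reverse of GATA2, and TAL1 did not pass 0.189 CPM in any library. Of 6 rows tested for other genes with a GATA-type zinc finger, 0 rose and 2 fell in LM against 24 h (median 0.03), beside the same 56.0%. TRPS1, a repressor of the family, lay between 16.8 and 30.0 CPM in LM and between 10.1 and 17.5 CPM in PM, and GATA1 did not pass 0.197 CPM in any library.

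By Pearson correlation over the 17 condition means of log2(CPM + 1), among the 12262 genes whose mean reached 10 CPM in some condition, the 3 genes most like each member were as follows. For GATA3 they were TFAP2A (r = 0.95), the BMP antagonist NOG (0.95) and the kinase PRKD1 (0.95). For GATA2 they were the unnamed transcript AL138900.3 (0.97), MEF2A (0.95), a regulator of muscle genes, and the pseudogene RPL29P19 (0.94). For GATA5 they were the adhesion receptor ADGRG6 (0.96), AL138900.3 (0.96) and CCDC74B (0.95). GATA4 was followed most closely by the protocadherin PCDH10 (0.95), the growth factor TGFB1 (0.95) and RAB18 (0.93), and GATA6 by MYADM (0.94), RAB18 (0.94) and the metalloprotease ADAM19 (0.93). Spearman correlation in place of Pearson kept 1 of the 3 genes for GATA2, GATA3 and GATA5 and 0 for GATA4 and GATA6. Adding 0.1 CPM in place of 1 before the logarithm kept 2 for GATA2, GATA3, GATA5 and GATA6 and 1 for GATA4. PCDH10 ranged from 4.87 to 565 CPM and was highest in PPS-LM, and TFAP2A ranged from 0 to 167 CPM. The highest condition mean was 10.6 CPM for AL138900.3, in MPS-LM, and 11.7 CPM for RPL29P19, in APS-LM. Both thus passed the limit of 10 CPM narrowly, and their peaks lay in LM, where GATA2 was also highest, so their likeness depends in part on that limit.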

How the data were processed

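RNA sequencing libraries of 17 conditions with 2 replicates each were analysed. According to the methods and processing notes, the authors quantified stranded poly(A) libraries with Salmon 1.10.2 on GRCh38 and summed transcripts to genes in R 4.4.2, and the deposited values are these estimated counts (expected counts), without normalization. The 2 rows of GATA4 were added. Rounded counts went into edgeR 4.0.16 under R 4.3.3, with TMM factors, filterByExpr by condition (17894 of 37950 genes), 1 mean per condition over 34 libraries with 17 residual degrees of freedom, quasi-likelihood tests and Benjamini-Hochberg adjustment at 0.05. Adjusted p in the text are from this test unless DESeq2 1.42.0 is named. SE was the log2 fold change over the square root of F. CPM used library totals, and sequences and lengths came from GENCODE v44. Genes named were the 5 members, genes of lists of partners, cofactors, BMP targets and cell type markers, and the 3 genes most like each member (pseudocount 1 CPM). The antisense genes of the members were not analysed here, and counts over the list of endoderm partners are not reported here. Members and lists were chosen with earlier results of these data known. The study calls the 2 replicates biological without saying whether they were separate cultures, so p-values measure the spread between these libraries. Replicates differed by more than counting noise in all 17 conditions. Intervals and floors (3 counts) cover counting error only. Alternatives were RLE, no filter, a replicate block, only the libraries compared, DESeq2, each library left out and, chosen after seeing the data, each GATA4 identifier alone. The fit was tested on simulated data.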

Additional observations from a re-analysis of the deposited data

Results flagged for a closer look

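The difference between PPS-derived and DE(a)-derived cells depended on the day 2 medium for GATA2 and GATA3, by a test of the difference itself. For GATA2, PPS minus DE(a) was -2.91 log2 units in LM relative to PM, -6.93 in LM relative to DE(b) and 4.02 in DE(b) relative to PM. For GATA3 it was -4.42 in LM relative to PM and -2.59 in LM relative to DE(b). The adjusted p of these 5 differences lay between 6.7e-07 and 0.0050 in edgeR. The GATA2 difference between DE(b) and PM did not pass in a model of the DE(b) and PM libraries of these populations alone (adjusted p = 0.066). The sizes rest in part on few counts, with 0 and 6 counts of GATA2 in the DE(a)-DE(b) libraries and 8 and 0 of GATA3 in DE(a)-PM.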

How the results depend on the processing

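Of 62 called log2 fold changes of the members, 0 changed direction under any alternative. All 62 passed with RLE, no filter, the replicate block and DESeq2, and 59 with only the libraries compared; the 10 of GATA4 passed under each of its 2 identifiers, an alternative chosen after seeing the data. The number of members called was within 1.5 times of that reported except for 3 results. Calls among the day 1 populations went from 11 of 20 to 17 without the filter, and those of the interaction from 7 of 20 to 14. Calls against MPS-LM went from 3 of 15 to 7 without the filter, 6 with only the libraries compared and 5 with DESeq2; the cause was not tested. With each library left out, calls ranged from 14 to 16 of 20 against the control, 5 to 6 of 15 between neighbouring populations, 14 to 15 of 15 for day 2 against 24 h, 13 to 14 of 15 between media, 11 to 12 of 20 among day 1 populations, 4 to 5 of 15 for PPS against DE(a), 0 to 3 of 15 against MPS-LM and 7 to 9 of 20 for the interaction.

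Replicate numbers name the 2 deposited tables. Deviations of same-numbered libraries had a median correlation of 0.16 over 136 pairs of conditions (from -0.20 to 0.57, with 96 over 0.1 and 14 below 0). Part of the spread thus went with the replicate number in most pairs. The sources do not say that the numbers pair the samples, and the block was kept as an alternative. With the replicate block, 5 of 15 calls were made against MPS-LM, where GATA2 and GATA3 passed in PPS-LM (adjusted p = 0.036 and 0.033), and GATA4 passed among the day 1 populations in DE(b) and PM (0.018 and 0.015), for PPS against DE(a) in PM (0.043) and for the interaction (0.0097), and GATA6 among the day 1 populations in LM (0.047). Over all genes the block gave more calls in every comparison. Calls went from 1097 to 1716 between MPS and PPS, from 679 to 1046 between MPS-LM and APS-LM, and from 1380 to 2106 for the difference between DE(b) and PM. With only the libraries compared, these 3 counts were 295, 244 and 484, and the count for PPS against DE(a) in PM went from 1541 to 167, that among day 1 populations in PM from 1335 to 272 and at 24 h from 3358 to 1904, that between APS and MPS from 524 to 267, between DE(a) and APS from 131 to 73, and that for the difference between LM and PM from 1166 to 489.

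Levels scaled by TMM were between 0.952 and 1.05 times those given, and 78 of 85 moved by no more than 1 SD. With 2 replicates per condition, differences of about 1 log2 unit, such as those within LM, lie near what the test could call. GATA5 levels in DE(b) rest on 1 to 5 counts per library.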
